A study of Homo sapiens with 7 samples.

Results

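Divergent protein-coding promoters are places where 2 protein-coding genes lie head to head on opposite strands and are transcribed away from each other. RefSeq's GRCh38.p14 annotation was searched for pairs where the transcription start sites (TSSs) of both genes lay at most 1000 bp apart and the gene bodies did not overlap. This gave 1016 pairs on chromosomes 1 to 22 and X. Pairs that shared a gene were counted once, which left 987 distinct loci with 2003 genes, out of 19673 protein-coding genes with a known strand. The region of a locus was the interval between the TSSs plus 1 kb on either side. The distance between the TSSs had a median of 174 bp, and it was at most 300 bp at 749 of the 987 loci. In the text each pair is written with the minus-strand gene first, which is also the gene on the left.

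The libraries were chromatin immunoprecipitation sequencing (ChIP-seq) of RNA polymerase II phosphorylated at threonine 4 (pThr4) of its C-terminal domain (CTD), made from the established cell line HEK293, which derives from human embryonic kidney. Lysate was split into matched aliquots and treated with the phosphatase SCP1 in its WT form (active SCP1, 3 biological replicates) or as the catalytically inactive mutant D96A (inactive SCP1, 3 biological replicates), and both groups were precipitated with the same pThr4 antibody, 6D7. The phosphatase acted on lysate and not in living cells, so the groups differ in what was done after the cells were broken. An IgG control was not analysed here. Each library came as 1 list of peaks with no read counts, so the depth of the libraries is unknown, and a region without a peak is one where nothing passed the q cutoff of 0.1 in that list. The lists held 12625, 6680 and 36892 peaks after treatment by active SCP1, whereas those for inactive SCP1 held 2466, 1163 and 2699 (replicates 1 to 3). Active replicate 3 stands apart with the longest list. The peaks of replicates 1 and 2 carry other names than those of replicate 3 in both groups, so values for replicates 1 and 2 alone are given beside the main ones. Peak lists do not measure the transcripts that would mark the cell line, so the labelled cell type was not checked.

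The CTD of the largest polymerase II subunit is a tail of repeated heptads whose residues are phosphorylated and dephosphorylated as the enzyme moves along a gene. Phosphate on serine 5 is typical of polymerase near gene starts. Phosphate on threonine 4 is known from the 3′ regions of genes, where transcripts are cut and polymerase terminates, and SCP1 is a CTD phosphatase that acts on serine 5. At a divergent promoter, polymerases initiate in both directions from a short, usually CpG-rich interval, so the start of another gene lies just upstream of each. Many such pairs are housekeeping genes, for example of mitochondria, DNA repair and protein folding.

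The intervals between the TSSs are short enough to be printed for several of the pairs described below. TFPT/PRPF31 had a peak in all 6 libraries. RAB24/PRELID1, PUS3/DDX25 and TIGD7/ZNF75A had one in every active and no inactive library. HSPD1/HSPE1 and SARS2/MRPS12 are textbook head-to-head pairs with a peak in active replicate 3 alone. The sequences are those of RefSeq (GRCh38.p14), on the plus strand, 5′ to 3′, and hold only the bases between the TSSs. Capitals mark a CCAAT box (CCAAT), a GC box (GGGCGG) or the core recognised by ETS factors (CCGGAAG), on either strand.
TFPT/PRPF31, chr19:54115658-54115753: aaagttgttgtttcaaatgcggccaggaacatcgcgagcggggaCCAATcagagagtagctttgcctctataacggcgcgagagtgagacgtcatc
RAB24/PRELID1, chr5:177303720-177303798: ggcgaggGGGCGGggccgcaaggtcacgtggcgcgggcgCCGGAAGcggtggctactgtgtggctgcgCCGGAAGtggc
PUS3/DDX25, chr11:125903207-125903327: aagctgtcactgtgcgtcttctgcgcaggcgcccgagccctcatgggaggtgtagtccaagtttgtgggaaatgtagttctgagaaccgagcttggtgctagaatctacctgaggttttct
TIGD7/ZNF75A, chr16:3305431-3305496: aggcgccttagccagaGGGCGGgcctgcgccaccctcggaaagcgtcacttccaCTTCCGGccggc
HSPD1/HSPE1, chr2:197500275-197500378: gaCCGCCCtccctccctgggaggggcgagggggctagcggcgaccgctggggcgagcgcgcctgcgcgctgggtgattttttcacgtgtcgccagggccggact
SARS2/MRPS12, chr19:38930764-38930943: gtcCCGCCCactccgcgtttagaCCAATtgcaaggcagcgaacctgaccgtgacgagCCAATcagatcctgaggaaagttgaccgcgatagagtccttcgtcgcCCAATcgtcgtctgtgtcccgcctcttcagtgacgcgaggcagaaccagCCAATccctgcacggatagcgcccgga
The SARS2/MRPS12 interval holds 4 CCAAT boxes in 180 bases, and RAB24/PRELID1 holds 2 ETS cores in 79. The PUS3/DDX25 interval holds none of the letters searched.

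A RefSeq promoter of 300 bases (250 before and 50 after the start) was at hand for 1728 of the 2003 genes and for 15812 of the 19673. CCGGAAG stood in 28.8% of the promoters of divergent genes and in 14.1% of all protein-coding promoters. The GC box was present in 71.0% against 58.3%, and the CCAAT box in 41.8% against 36.4%. TATAAA, the TATA box, was the rarer one, with 4.51% against 9.75%. The median GC content was 64.7% against 62.7%, and the median ratio of observed to expected CpG was 0.875 against 0.762. Both strands were searched and each motif was counted on its own. With TSSs a median of 174 bp apart, the promoters of both partners often overlap, so 1 motif can count for both genes. The start in the promoter table was that of the gene table for 13792 of the 15812 genes. Divergent genes with and without peaks had similar values. Among the 97 genes whose region had a peak in at least 2 active libraries, 27.8% held CCGGAAG and 72.2% a GC box, against 28.8% and 70.9% of the 1631 genes whose region did not.

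Which divergent promoters carried pThr4, and whether treatment with active SCP1 changed that, was asked first. With active SCP1, 60, 32 and 181 of the 987 regions had a peak (6.08%, 3.24% and 18.3%), and with inactive SCP1 18, 5 and 20 had one (1.82%, 0.507% and 2.03%). Every active library lay above every inactive one. The mean share was 9.22% ± 8.02 (SD, n = 3) against 1.45% ± 0.825 (SD, n = 3). On the log2 scale the difference was 2.53, a 5.78-fold ratio of the geometric means, with p = 0.1 in the two-sided exact permutation test, the smallest value that 3 against 3 libraries can give. The difference was 2.21 for replicates 1 and 2 and 1.85 without active replicate 3. With every list cut to 1163 peaks, the length of the shortest, it was 0.82 (p = 0.2, exact permutation test). The length of the lists thus moved with the difference, and active replicate 2 (1.01%) then lay below inactive replicate 3 (1.32%). In the full lists, the share with a peak over all protein-coding TSS windows (1 kb either side of a TSS) was 7.05%, 4.47% and 19.2% for active SCP1. The shares for inactive SCP1 were 2.30%, 0.905% and 2.56%. At most 18.3% of the divergent regions had a peak in any list, and 797 regions had no peak in any library.

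A region is wider than a single TSS window, so shares of regions and of windows are not fully alike. Over windows, a peak in at least 1 library was found at 19.0% of divergent and 20.2% of other genes. The 190 regions with a peak in at least 1 library (19.3%, against 20.0% of all TSS windows) were unevenly spread over the lists. Active replicate 3 alone accounted for 126 of them, 12.8% of all regions. Over windows, this pattern was found at 12.6% of divergent and 12.3% of other genes, so nothing particular to divergent regions is read from it. A peak in at least 2 active libraries was found at 56 regions (5.67%), and the same pattern was seen at 6.82% of all TSS windows. Over windows it was 5.59% of divergent and 6.96% of other genes. A peak in at least 2 inactive libraries was found at 14 regions, 1.42% against 1.85% of all windows. No region had a peak in more inactive than active libraries, which among all windows was the case for 0.0305%. All 18, 5 and 20 regions of the inactive lists were also among the 60 of active replicate 1, of which they made up 30%, 8.33% and 33.3%. No such overlap over all TSS windows stands beside this, so nothing particular to divergent regions is read from it.

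Compared with other promoters, divergent ones carried pThr4 peaks less often. Since a region is wider than a single window, this comparison used windows of 1 kb either side of each TSS for the 2003 divergent genes and for the 17670 other protein-coding genes. In the active lists 6.04%, 3.25% and 18.1% of the windows of divergent genes had a peak, against 7.16%, 4.61% and 19.4% of the others. In the inactive lists the shares were 1.85%, 0.549% and 2.05% against 2.35%, 0.945% and 2.62%. The divergent class was lower in 6 of 6 libraries, with a mean ratio on the log2 scale of −0.39 ± 0.24 (SD, n = 6), or 0.764-fold, and p = 0.031 in the two-sided exact sign-flip test, the smallest that 6 libraries can give. For replicates 1 and 2 the mean was −0.47. It was −0.63 at equal peak number, −0.86 at a common cutoff on the −log10 p-value and −0.65 at a stricter q cutoff, each with p = 0.031 in the same exact test. The ratio was 0.21 higher on the log2 scale in the active group, which did not pass the test (p = 0.4, exact permutation test). The 6 libraries look at the same genes, so this test covers variation between libraries and not between genes, and partners of a pair often share a peak.

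**Figure D1:**
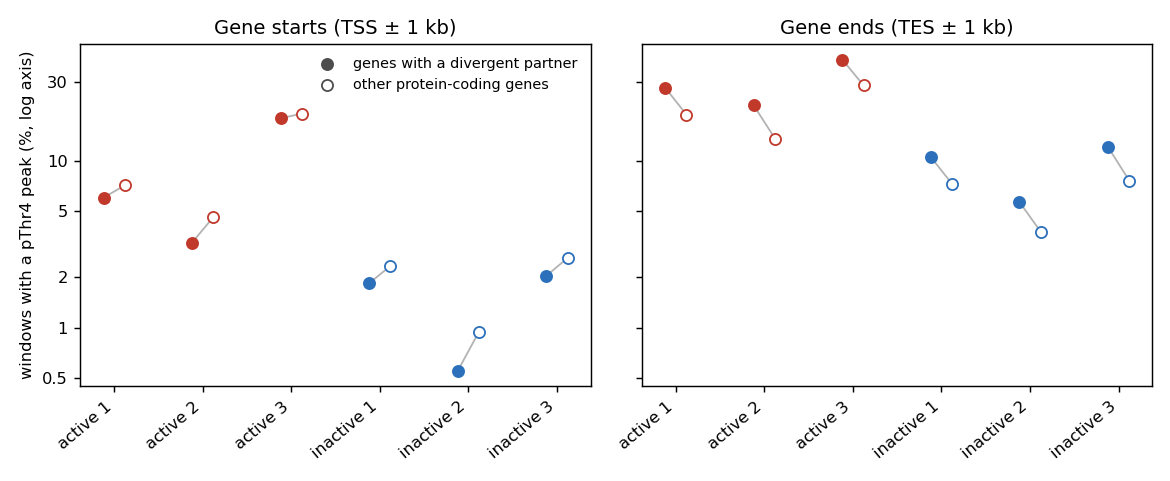
Share of windows with a pThr4 peak in each library (percent, log axis), at gene starts (left) and gene ends (right), for genes with a divergent partner (filled) and other protein-coding genes (open); red is active and blue is inactive SCP1. At gene starts the filled point is the lower of the pair in all 6 libraries, and at gene ends the higher.

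At the other end of the same genes the order was turned round. A transcription end site (TES) window, 1 kb either side of the annotated gene end, had a peak at 27.7%, 21.7% and 40.9% of the divergent genes in the active lists, against 19.1%, 13.7% and 28.6% of other genes. In the inactive lists it was 10.6%, 5.69% and 12.2% against 7.31%, 3.77% and 7.65%. Over all genes the shares were 20.0%, 14.5% and 29.8%, and 7.64%, 3.96% and 8.11%. The share was higher for divergent genes in 6 of 6 libraries, 1.50-fold on average (log2 ratio 0.59 ± 0.067, SD, n = 6, p = 0.031, two-sided exact sign-flip test), and 0.58 on the log2 scale for replicates 1 and 2. The spread of this ratio over the libraries was small although the lists differed in length from 1163 to 36892 peaks. As at the starts, the libraries look at the same genes, so the test and this spread cover variation between libraries and not between genes. Divergent genes had a median length of 24690 bp and other genes of 24730 bp, the upper quartile was 53589 against 67988 bp, and 25.4% against 28.0% were under 10 kb. The part of gene length in this result was not tested.

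Among genes that did have a peak at their end, the start was still marked less often when it was divergent. This comparison was chosen after the values above were seen. In the active lists 61 of 555, 39 of 434 and 221 of 819 divergent genes with an end peak also had a start peak (11.0%, 8.99% and 27.0%), against 17.2%, 13.6% and 33.7% of other genes with an end peak. In the inactive lists it was 10 of 212, 4 of 114 and 16 of 244 (4.72%, 3.51% and 6.56%), against 8.52%, 5.56% and 9.91%. The log2 ratio had a mean of −0.61 ± 0.17 (SD, n = 6), or 0.655-fold, was below 0 in 6 of 6 libraries (p = 0.031, two-sided exact sign-flip test), and was −0.69 for replicates 1 and 2. This test too covers variation between libraries and not between genes. In genes of at least 10 kb, where both windows lie far apart, the active lists gave 4.34%, 2.31% and 20.8% against 9.36%, 6.64% and 25.9%. For those long genes the inactive lists gave 0 of 137, 0 of 74 and 1 of 163 against 3.34%, 1.42% and 3.63%. No ratio could be formed in inactive replicates 1 and 2. In the other libraries the mean log2 ratio was −1.38 ± 0.94 (SD, n = 4, p = 0.125, two-sided exact sign-flip test). That is the smallest p that 4 libraries can give, so the long genes did not pass the threshold.

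Peaks at divergent starts were next read against the distance to a gene end. A protein-coding gene end lay within 5 kb of 491 of the 2003 TSSs of divergent genes, the ends of short genes of the pair included, and of 4780 of the 17670 others. These 491 windows held 91 of the 121, 52 of the 65 and 183 of the 363 windows with a peak in the active lists, and 32 of 37, 9 of 11 and 35 of 41 in the inactive lists. These shares (75.2%, 80% and 50.4%, and 86.5%, 81.8% and 85.4%) lay near those of other promoters (71.4%, 80.7% and 47.7%, and 88.9%, 89.8% and 87.7%), and nothing particular to divergent starts is read from them. Where no gene end lay within 5 kb, only 5, 2 and 6 windows of divergent genes had a peak in the inactive lists, against 30, 13 and 180 in the active ones, of 1512 windows. In this subset, an alternative added after seeing the data, the ratio of divergent to other windows was 0.707, 0.706 and 0.858 with active and 0.927, 1.00 and 0.897 with inactive SCP1. Its log2 mean was −0.25 (p = 0.0625, two-sided exact sign-flip test), so the lower share of divergent starts was no longer past the threshold there. It was past it (−0.26, p = 0.031, two-sided exact sign-flip test) when other genes were also limited to those with no further TSS within 5 kb. With no gene end within 5 kb the group difference turned from 0.21 to −0.32 (p = 0.1, exact permutation test).

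**Figure D2:**
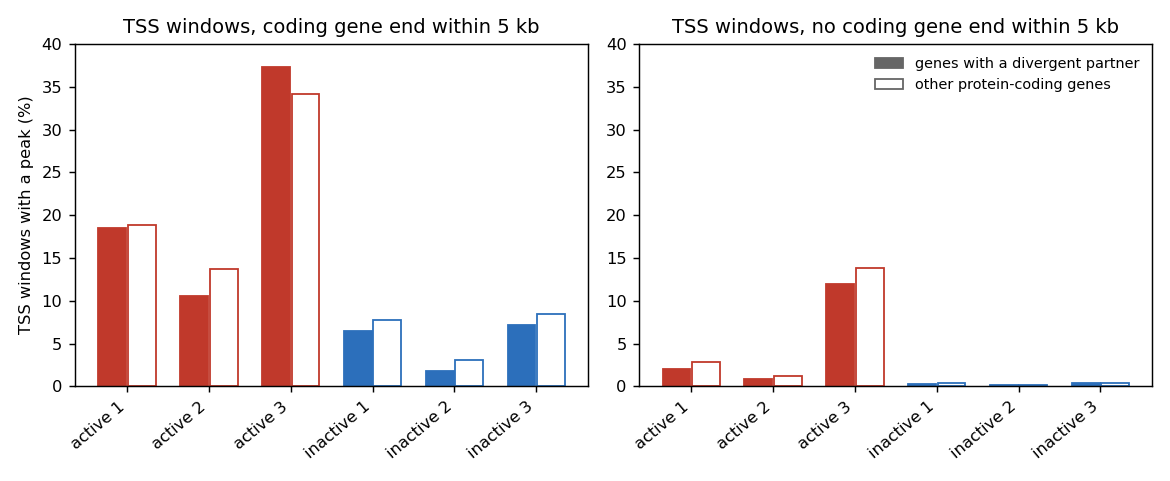
Share of TSS windows with a pThr4 peak (percent) in each library, for windows with (left) and without (right) a protein-coding gene end within 5 kb; filled bars are genes with a divergent partner and open bars other protein-coding genes, red is active and blue is inactive SCP1. Windows near a gene end had a peak more often in both classes, and the bars of the inactive libraries without a near end stay below 0.5%.

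Around the TSS, coverage by peaks was followed over distance at divergent and other genes. Within 1 kb of the TSS, the highest share of divergent TSSs under a peak in the active lists was 3.59%, 1.90% and 10.7%, 50 bp upstream of the TSS (in replicate 2 equally high 50 bp downstream). For other genes the highest values were 4.99%, 3.01% and 12%. Going outwards the share at divergent genes fell and then rose again on both sides. At other genes it rose again downstream too, in active replicate 1 from 1.47% at 1850 bp to 2.73% at 4950 bp. The upstream side of a divergent gene is the downstream side of its partner, so its rises on both sides are not independent. At 4950 bp upstream, which is inside or beyond the partner gene, 4.19%, 2.55% and 7.74% were covered in the active lists, against 1.75%, 1.07% and 4.56% at other genes. The inactive lists gave 1.45%, 0.699% and 1.70% there, against 0.402%, 0.243% and 0.464%. At 4950 bp downstream, inside or beyond the gene itself, the active lists gave 4.24%, 2.55% and 8.44%, against 2.73%, 1.49% and 5.83% at other genes. The inactive lists gave 1.50%, 0.649% and 1.70% there, against 0.764%, 0.396% and 0.758%. In 5 of 6 lists, all but active replicate 3, more divergent genes were covered 4950 bp away, on either side, than at the highest point within 1 kb of the start, which in the inactive lists was 0.999%, 0.200% and 1.15%. These profiles are descriptions, with no test.

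**Figure D3:**
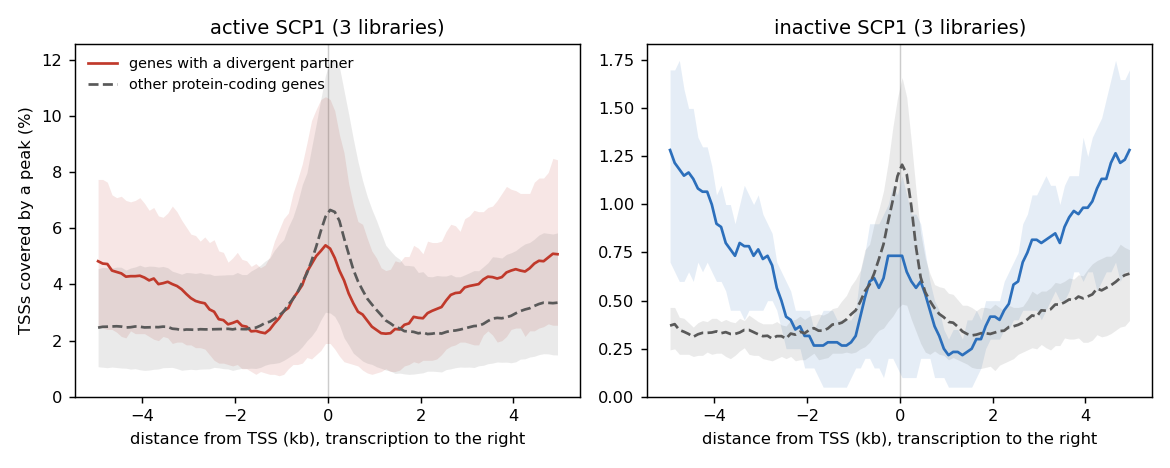
Share of TSSs covered by a pThr4 peak (percent) against the distance from the TSS (kb, transcription to the right), as the mean of 3 libraries (line) with their range (band); solid lines are genes with a divergent partner and dashed lines other protein-coding genes, and the y axes of the 2 panels differ. Coverage at divergent genes dips on both sides of the TSS and rises again towards 5 kb in both directions. At other genes it dips and rises again downstream and stays low upstream.

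How far a peak lay to one side was measured from the peak with the highest fold enrichment in each region. Coverage of a TSS was counted over all peaks of the region. One peak covered both TSSs at 28 of 60, 15 of 32 and 90 of 181 regions in the active lists (46.7%, 46.9% and 49.7%), and at 7 of 18, 0 of 5 and 9 of 20 in the inactive lists (38.9%, 0% and 45%). The difference of the means was 19.8 percentage points (p = 0.1, exact permutation test). It rested on inactive replicate 2 with its 5 regions, without which it was 5.81. The TSS of the minus-strand gene alone was covered at 9, 4 and 18 regions of the active lists and at 2, 1 and 3 of the inactive ones. The TSS of the plus-strand gene alone was covered at 2, 1 and 13, and at 2, 0 and 1. No TSS was covered at 21, 12 and 60, and at 7, 4 and 7 regions, where the peak lay beside or between the starts.

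Which gene of a pair is on the plus strand is arbitrary, so the share of peaks on its side served as a control of the layout. The peak midpoint lay on the side of the plus-strand gene at 33.3%, 25% and 54.1% of the active and 22.2%, 20% and 30% of the inactive regions. The mean was 19.2 points under an even split (p = 0.0625, two-sided exact sign-flip test), and the share was lower in 5 of 6 libraries. The lists share many regions, so the 6 values are not independent over regions. Of the 28 regions with a peak in active replicates 1 and 2, 22 had it on the same side, and of the 20 in active replicate 1 and inactive replicate 3, 17 did. Where exactly 1 gene of the pair had a peak at its end, the region's peak lay on the side of that gene at 17 of 21, 9 of 12 and 46 of 67 active and at 8 of 8, 2 of 2 and 8 of 9 inactive regions. A broad peak can reach from the start to that end and then counts for both. Where the region's peak did not reach the window of that gene end, it lay on its side at 11 of 14, 5 of 8 and 30 of 50 active and at 5 of 5, 1 of 1 and 5 of 5 inactive regions. No expected share stands beside these counts, and the same loci recur over the lists. No link between the side of the peak and the gene end is therefore read from them. Peaks centred between the TSSs made up 23.3%, 15.6% and 13.3% against 22.2%, 20% and 10% in the inactive lists, a difference of −0.0014 percentage points (p = 1, exact permutation test).

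Many of these peaks reached well into a gene. They extended past the region at 27 of 60, 14 of 32 and 89 of 181 regions for active SCP1 and at 7 of 18, 2 of 5 and 6 of 20 for inactive SCP1. The end of a gene of the pair itself was under the same peak at 12, 8 and 36, and at 2, 0 and 4 regions. The genes on both sides had medians under that of all divergent genes. The gene on the side of the peak had a median length of 6585, 4576 and 10562 bp for active and 4270, 5860 and 4191 bp for inactive SCP1, and the gene on the other side of 7930, 10861 and 13061 bp, and 9408, 15960 and 10370 bp, where the median of all divergent genes was 24690 bp. A gene of under 10 kb lay on that side at 39 of 60, 28 of 32 and 88 of 181 regions, and at 16 of 18, 5 of 5 and 17 of 20, where 25.4% of all divergent genes are that short. No such reach or lengths for other promoters with a peak stand beside these values, so nothing particular to divergent starts is read from them. The distance between the TSSs also moved with the share. Loci with TSSs 301 to 1000 bp apart had a peak at 9.66%, 5.04% and 22.7% in the active lists, against 4.44%, 2.22% and 16.6% at 101 to 300 bp and 5.91%, 3.54% and 17.7% at up to 100 bp. Regions of the first class are wider, so the part of width in this was not tested.

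The heights of the peaks were compared within each list, since the deposited fold enrichment (library over background) has no common scale across lists. Peaks at divergent TSS windows had a median fold enrichment of 3.63, 3.62 and 3.17 in the active lists, against 3.62, 3.80 and 3.21 at other TSS windows. In the inactive lists it was 3.76, 3.75 and 3.94 against 4.07, 4.06 and 4.09. The mean log2 ratio was −0.062 ± 0.048 (SD, n = 6), lower in 5 of 6 libraries, with p = 0.0625 (two-sided exact sign-flip test). The difference between the groups was 0.065 (p = 0.2, exact permutation test). The median −log10 p-value was 5.29, 5.44 and 4.07 against 5.22, 5.61 and 4.13 for active SCP1. For inactive SCP1 it was 5.69, 5.79 and 5.70 against 6.22, 6.64 and 6.22. Divergent peaks were lower by 0.34 on average (p = 0.09375, two-sided exact sign-flip test), and the difference between the groups was 0.58 (p = 0.1, exact permutation test). Neither readout passed 0.05.

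Peaks in every active and no inactive library were found at 5 regions (0.507%). The count depends on the libraries and the cutoff, since it was 27 without active replicate 2 (8 to 10 without active replicate 1, inactive replicate 1 or inactive replicate 3) and 0 at equal peak number. Over windows this was 11 of 2003 for divergent genes (0.549%) and 242 of 17670 for others (1.37%), with 1.29% of all windows. The regions are given by their fold enrichment in active replicates 1 to 3, which ran from 2.79 to 4.37. RAB24/PRELID1, a small GTPase of autophagy and a lipid transfer protein of mitochondria, had 3.32, 3.28 and 4.37 (chromosome 5, TSSs at 177303719 and 177303799). CDCA3/USP5, a regulator of mitotic entry and a deubiquitinase, had 3.25, 3.33 and 3.36 (chromosome 12, TSSs at 6851286 and 6852150). PUS3/DDX25, a tRNA pseudouridine synthase and a helicase of the testis, had 4.18, 3.34 and 3.25 (chromosome 11, TSSs at 125903206 and 125903328).

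The other 2 regions of this kind were TIGD7/ZNF75A and SARNP/ORMDL2. TIGD7/ZNF75A, a gene derived from a transposase and a zinc finger gene, had 2.86, 3.16 and 4.35 (chromosome 16, TSSs at 3305430 and 3305497). SARNP/ORMDL2, an mRNA export factor and a regulator of sphingolipid synthesis, had 2.79, 3.72 and 3.66 (chromosome 12, TSSs at 55817724 and 55818041). The peaks differed in extent. At TIGD7/ZNF75A they were 450, 321 and 1342 bp wide and covered both TSSs in each active list. At CDCA3/USP5, whose TSSs are 864 bp apart, they had widths of 760, 266 and 864 bp and lay between the TSSs, except that the last reached over that of USP5. At RAB24/PRELID1, whose genes are 2522 and 3151 bp long, the peaks were 2210, 2019 and 7660 bp wide, and the end of PRELID1 had a peak in all 6 libraries although its start had none in the inactive ones. The end of SARNP also had a peak in all 6. At PUS3/DDX25 neither gene end had a peak in any list.

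**Figure D4:**
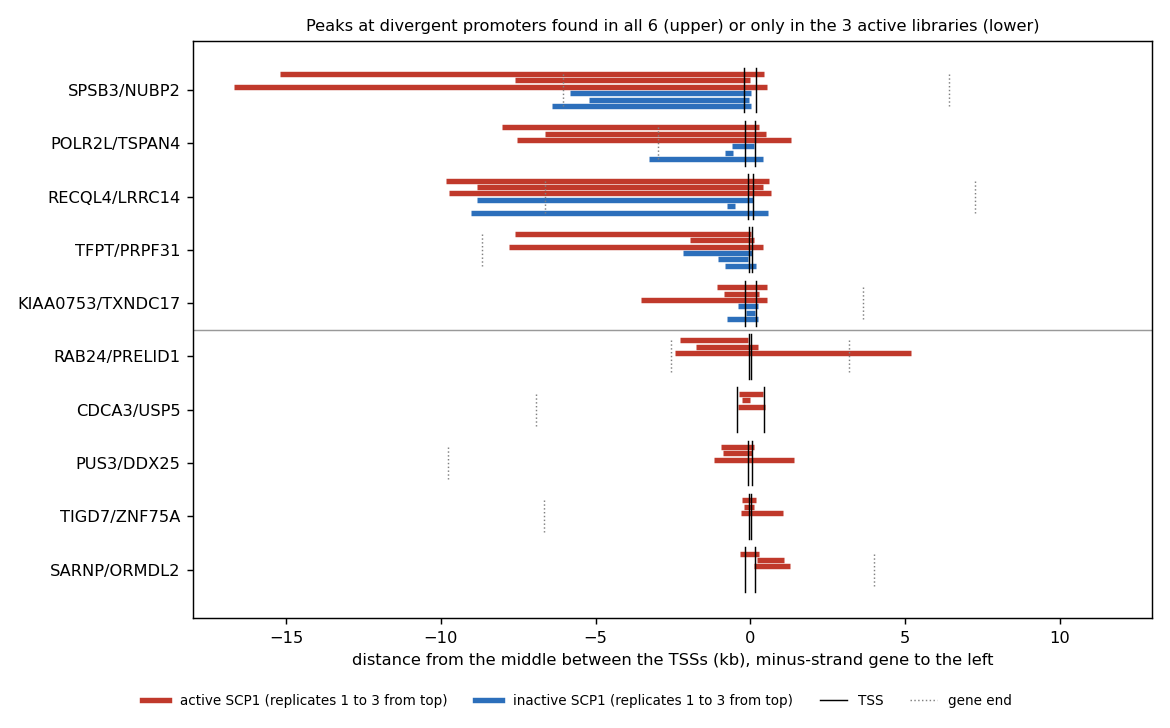
Extent of the highest peak of each library at the 10 divergent promoters with a peak in all 6 libraries (upper) or in the 3 active libraries only (lower), in kb from the middle between the TSSs; red bars are active and blue bars inactive SCP1, black lines TSSs and dotted lines gene ends, where these lie within the plot. At SPSB3, POLR2L and RECQL4 the bars of the active libraries run past the end of the minus-strand gene, and at CDCA3/USP5 and TIGD7/ZNF75A they stay near the starts.

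A peak in all 6 libraries was found at 5 regions as well (0.507%), and at 14 in the other 5 libraries when inactive replicate 2 was left out. At equal peak number it was 2. Over windows this was 0.549% of divergent and 0.860% of other genes, with 0.829% of all. RECQL4/LRRC14, a DNA helicase gene and a leucine-rich repeat gene on chromosome 8 (TSSs at 144517833 and 144517992), had a fold enrichment of 7.11, 6.12 and 8.03 with active and 5.48, 3.75 and 5.37 with inactive SCP1. SPSB3/NUBP2, a receptor subunit of a ubiquitin ligase and an assembly factor of iron-sulfur proteins on chromosome 16 (TSSs at 1782571 and 1782960), had 6.61, 5.39 and 8.24, and 4.48, 4.33 and 4.43. The end of a further gene, EME2, lies in that region. At both of these the active lists gave higher values than the inactive ones, without a common scale.

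The other 3 had values closer to the medians of their lists. POLR2L/TSPAN4, a small subunit shared by the 3 nuclear RNA polymerases and a tetraspanin on chromosome 11 (TSSs at 842529 and 842852), had 4.36, 3.90 and 4.51 with active and 3.89, 4.24 and 4.20 with inactive SCP1. TFPT/PRPF31, an INO80 complex subunit and a tri-snRNP splicing factor on chromosome 19 (TSSs at 54115657 and 54115754), had 3.76, 3.72 and 4.37, and 4.17, 3.56 and 4.20. KIAA0753/TXNDC17, a centriole protein and a thioredoxin-like protein on chromosome 17 (TSSs at 6640711 and 6641060), had 3.98, 3.47 and 5.01, and 3.44, 3.31 and 3.75. The extents of the peaks differed too. At POLR2L/TSPAN4 the peaks were 8290, 7121 and 8835 bp wide in the active libraries, where they ran over the whole of POLR2L, and 694, 278 and 3697 bp in the inactive ones, of which the last did so too. At TFPT/PRPF31 they were 7629, 2075 and 8212 bp, and 2235, 975 and 1000 bp. At RECQL4/LRRC14 the peaks of 5 libraries ran over RECQL4 and its end with widths of 8908 to 10438 bp, and inactive replicate 2 had a peak of 254 bp inside RECQL4.

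Gene groups were described from lists of symbols. Of all 987 regions, 19.3% had a peak in any library and 5.67% in at least 2 active ones, and the counts below are read against these. Genes of oxidative phosphorylation took part in 28 loci, of which 7 had a peak in any active and 3 in at least 2 active libraries. NDUFA2/IK, a subunit of complex I with a splicing factor, had peaks in 5 libraries (4.05, 3.39 and 3.46 with active SCP1, 4.21 and 3.62 in inactive replicates 1 and 3). TIMM8B/SDHD, with a subunit of succinate dehydrogenase, and TSSK6/NDUFA13 had peaks in active replicates 1 and 3. Of 22 loci with mitochondrial ribosomal proteins, 5 had a peak in any active library and 1 in at least 2, HIRA/MRPL40, a histone chaperone gene with a large-subunit protein, which had a peak in 5 libraries. Zinc finger genes took part in 36 loci, of which 7 had a peak in any active and 3 in at least 2 active libraries, TIGD7/ZNF75A among them.

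Of 33 loci with genes of DNA repair and replication, 5 had a peak in any active library and 1 in at least 2. Of 19 with splicing genes, it was 3 and 1, the latter TFPT/PRPF31. Of 16 with centrosome and centromere genes, it was 3 and 1, and of 16 with cytosolic ribosomal protein genes, 1 and 1, RPL36AL/MGAT2 with 3.64 and 3.69 in active replicates 1 and 3. Replication-dependent histone genes, whose transcripts end in a stem-loop and not in a poly(A) tail, are often arranged head to head, and 2 of their 13 loci had a peak in active replicate 3 and none elsewhere. Chaperone loci with a peak numbered 4 of 12, proteasome loci 1 of 9 and aminoacyl-tRNA synthetase loci 1 of 6, and each of these 6 peaks was in active replicate 3 only. In active replicate 3 alone 18.3% of all regions had a peak. These counts are a description, and nothing particular to a list was tested.

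Textbook head-to-head pairs that met the rule numbered 10. HSPD1/HSPE1, the mitochondrial chaperonin and its co-chaperonin, had 1 start peak, of 2.93 in active replicate 3, while the end of HSPD1 had a peak in 6 of 6 libraries. SARS2/MRPS12, a mitochondrial seryl-tRNA synthetase and a ribosomal protein, had 3.05 in active replicate 3, and both gene ends had a peak in each active list and in none of the inactive ones. OSGEP/APEX1, a tRNA-modifying enzyme and the main abasic site endonuclease, had 3.33 and 4.01 in active replicates 2 and 3, and the end of APEX1 had a peak in 4 libraries. SURF1/SURF2 had no start peak in any list, although the end of SURF1, an assembly factor of cytochrome oxidase, had one in 6 of 6 and that of SURF2 in 4 of 6. COL4A1/COL4A2, the chains of basement membrane collagen, and NPAT/ATM had no peak at start or end. TAP1/PSMB9, PRKDC/MCM4, TMEM258/FEN1 and PDCD10/SERPINI1 had no start peak, and the first 3 had an end peak in at least 1 active list.

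The gene ends of a pair tended to have a peak together. With a peak at the end of the minus-strand gene, the end of the plus-strand gene had one at 44.7%, 42.2% and 57.7% of the loci in the active lists and at 19.8%, 15.9% and 25.2% in the inactive lists. Without one, it was 21.4%, 16.8% and 29.9%, and 8.90%, 4.33% and 9.77%. In numbers, both ends had a peak at 122, 89 and 232 loci with active and at 22, 10 and 32 with inactive SCP1. This is given as a description. No share for other neighbouring genes stands beside it, so nothing particular to divergent pairs is read from it. Over all 2003 gene ends, 128 had a peak in every active and no inactive library, 6.39% against 3.95% of other genes, with 4.20% of all TES windows. A peak in all 6 libraries was found at 100 ends, 4.99% against 3.19%, with 3.38% of all. The 128 ends with this active-only pattern stand beside 11 starts with it.

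**Figure D5:**
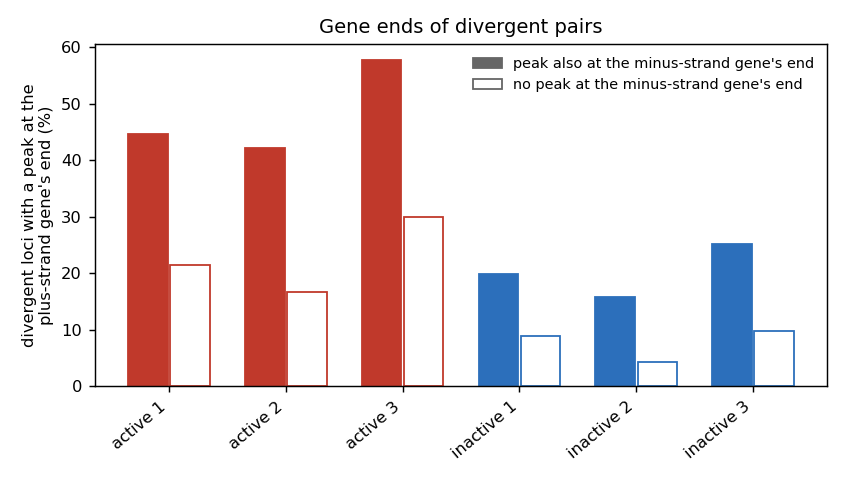
Share of divergent loci with a pThr4 peak at the end of the plus-strand gene (percent) in each library, for loci with (filled) and without (open) a peak at the end of the minus-strand gene; red is active and blue is inactive SCP1. The filled bar is the higher one in all 6 libraries, from 15.9% to 57.7% against 4.33% to 29.9%.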

How the data were processed

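The 6 deposited lists hold peaks called per library by the authors in the broad-peak layout of MACS, on GRCh38. Bowtie2 2.5.2, cutadapt 4.6 and FastQC are named in the submitters' processing notes. The caller's version and control are not given in the sources used here. The study given for reading treats other libraries, so its methods were not used. For each peak the authors deposited a fold enrichment (a ratio of library over background), a score, which was not used, a −log10 p-value and a −log10 q-value, the lowest of which lay just above 1 in each list. Read counts are not part of these lists, depth is unknown, and the precision rests on 3 replicates per group. Replicates are biological per the labels, and a q cutoff set within each list lets weaker peaks into longer lists.

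The RefSeq table gives no strand. It was taken from the RefSeq promoter table for 15812 genes and by identifier or name from GENCODE for 3861, and 301 of 19974 genes without a strand were left out. GRCh37 coordinates were not used. A peak counted with at least 1 bp of overlap. Groups were compared by two-sided exact permutation tests over libraries (smallest p 0.1), and divergent with other genes by two-sided exact sign-flip tests over 6 libraries (smallest p 0.031), in Python 3.11.15 with numpy 2.4.6 and pandas 2.3.3. The steps were tested on simulated data. Regions named were those with a peak in all 6 or in every active and no inactive library, ranked by their lowest fold enrichment, plus textbook pairs and members of the gene lists. Regions, lists and tests were chosen with earlier results of these data known. Lysate was split into matched aliquots, but the labels do not say that a replicate number marks a shared lysate. The numbers were therefore not used as pairs in the main tests. Deviations of same-numbered libraries had correlations of 0.088, −0.40 and −0.32 over 3528 windows. With lists this unlike in length, these correlations cannot show whether libraries shared a lysate. Alternatives were equal peak number, a common −log10 p-value of at least 6, a −log10 q-value of at least 2, the peak midpoint, 500 bp windows, TSS distances up to 500 bp, other comparison classes and leaving out libraries.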

Additional observations from a re-analysis of the deposited data

How the results depend on the processing

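The higher share of regions with a peak in active libraries kept its direction under every alternative run, with a log2 difference of 1.85 to 3.10 when 1 library was left out. At equal peak number the difference was 0.82 (p = 0.2, exact permutation test), and the libraries of both groups overlapped. The lower share of peaks at divergent starts ranged from −0.45 to −0.31 (log2) without 1 library, where the exact sign-flip test over 5 libraries cannot give a p under 0.0625. It was −0.63 at equal peak number, −0.86 at a common p cutoff and −0.65 at a stricter q cutoff (each p = 0.031, exact sign-flip test), −0.47 for replicates 1 and 2, and −0.25 with no gene end within 5 kb in both classes (p = 0.0625, exact sign-flip test), where it was −0.26 (p = 0.031, exact sign-flip test) with other genes also free of a further TSS within 5 kb. The higher share at gene ends ranged from 0.57 to 0.60 without 1 library, and was 0.58 for replicates 1 and 2. It was 0.53 at equal peak number, 0.56 at a common p cutoff and 0.55 with TSS distances up to 500 bp. The group difference at starts turned to −0.32 with no gene end within 5 kb and to −0.31 with other genes also free of a further TSS within 5 kb, both added after seeing the data, where inactive libraries hold 6 or fewer divergent windows with a peak. The cause was not tested.

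The fold enrichment ratio passed the threshold at a common p cutoff (−0.069), a stricter q cutoff (−0.052), by peak midpoint (−0.11) and in 500 bp windows (−0.066), as did the −log10 p-value difference at the first 3 of these settings (−0.64, −0.59 and −0.47), and the side of the peak at a common p cutoff (−25.5). The share centred between the TSSs changed sign at those 4 settings (5.68, 3.27, 1.70 and 0.057) and ranged from −3.71 to 2.41 without 1 library. Regions with a peak in active libraries only numbered 0 at equal peak number, 3 at a common p cutoff, 3 at a stricter q cutoff and 11 for replicates 1 and 2, and 5 to 27 without 1 library. Regions with a peak in all 6 numbered 2, 1, 1 and, by peak midpoint, 0, and 5 to 14 without 1 library. The group difference in the share of peaks over both TSSs ranged from 5.81 to 28.3 points without 1 library. It was 33.8 points at equal peak number and 30.6 at a common p cutoff. Pairing the libraries by number (replicate block) left the difference in region share at 2.53 with p = 0.25 (exact sign-flip test over 3 pairs, the smallest it can give), with active above inactive in 3 of 3 pairs, and changed no call. A test of 3 pairs cannot pass the threshold. The unknown depth limits how far a missing peak can be read.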
